A study of Mus musculus with 15 samples.

Results

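Markers of the thalamus and the habenula were followed in bulk RNA sequencing of mouse hippocampus. They are 10 of the 55471 genes in the table, and were taken by symbol through the Ensembl identifiers: 6 thalamic markers (*Tcf7l2*, *Prkcd*, *Ramp3*, *Lhx9*, *Slc17a6* and *Nwd2*) and 4 habenular markers (*Pou4f1*, *Chrnb4*, *Chrna3* and *Tac2*). The genes were chosen by their levels (CPM) in all 15 libraries, so the levels below are a description. The libraries were made from whole hippocampus of female mice at 3 months of age, with 3 libraries in each of 5 groups. Batch 1 held DM mice (genotype AppNL-G-F/NL-G-F with a single *APOE4* allele), APP-TKI mice (AppNL-G-F/NL-G-F) and WT mice, and batch 2 held ApoE4 mice (ApoE4+/wt) and a WT group of its own. The *App* mutations are knocked in at the mouse gene and homozygous, human *APOE4* is knocked in and heterozygous, all alleles are germline, and the WT mice were of the C57BL/6JInv strain. The study counts its replicates as mice, but the labels do not tie a library to an animal, and p-values measure the spread between libraries.

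The thalamus lies directly beneath the hippocampus and relays sensory and motor signals to the cortex through glutamatergic neurons that use the vesicular transporter encoded by *Slc17a6*. The habenula is a small nucleus at the dorsal edge of the thalamus, and its neurons project to the midbrain. Medial habenular neurons are known for very high expression of nicotinic acetylcholine receptors, and many of them release the tachykinin neurokinin B along with glutamate or acetylcholine. Most neurons of the hippocampus proper use *Slc17a7* in place of *Slc17a6*, and these markers are far more abundant in the neighbouring tissue than in hippocampal neurons. In bulk RNA, fewer cells of a type and less RNA per cell cannot be told apart.

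Total counts were 32754717 to 44630808 per library. Levels are in CPM, counts scaled to a common library total. Defining hippocampal markers were present throughout: the summed level of 12 of them was 1332 CPM in WT replicate 3 of batch 2, against 1329 to 1576 CPM in the other 14 libraries. One library stood apart for the genes described here. WT replicate 3 of batch 2 had the highest level of the 15 libraries for 10 of 10 markers, at a total of 38142323 counts that lies inside the range of the others. Of the 16171 genes past the filter on low counts (over 1 CPM in at least 3 libraries), 11.6% were highest in that library and 0.81% were more than 1.5 times above the next highest library. The 7 markers past the filter met both conditions, which is a description, since these levels chose the genes. ApoE4 replicate 3 also had 131 genes more than 1.5 times above the next library, the same number as WT replicate 3 of batch 2, but none of the 10 markers was highest there.

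**Figure D1:**
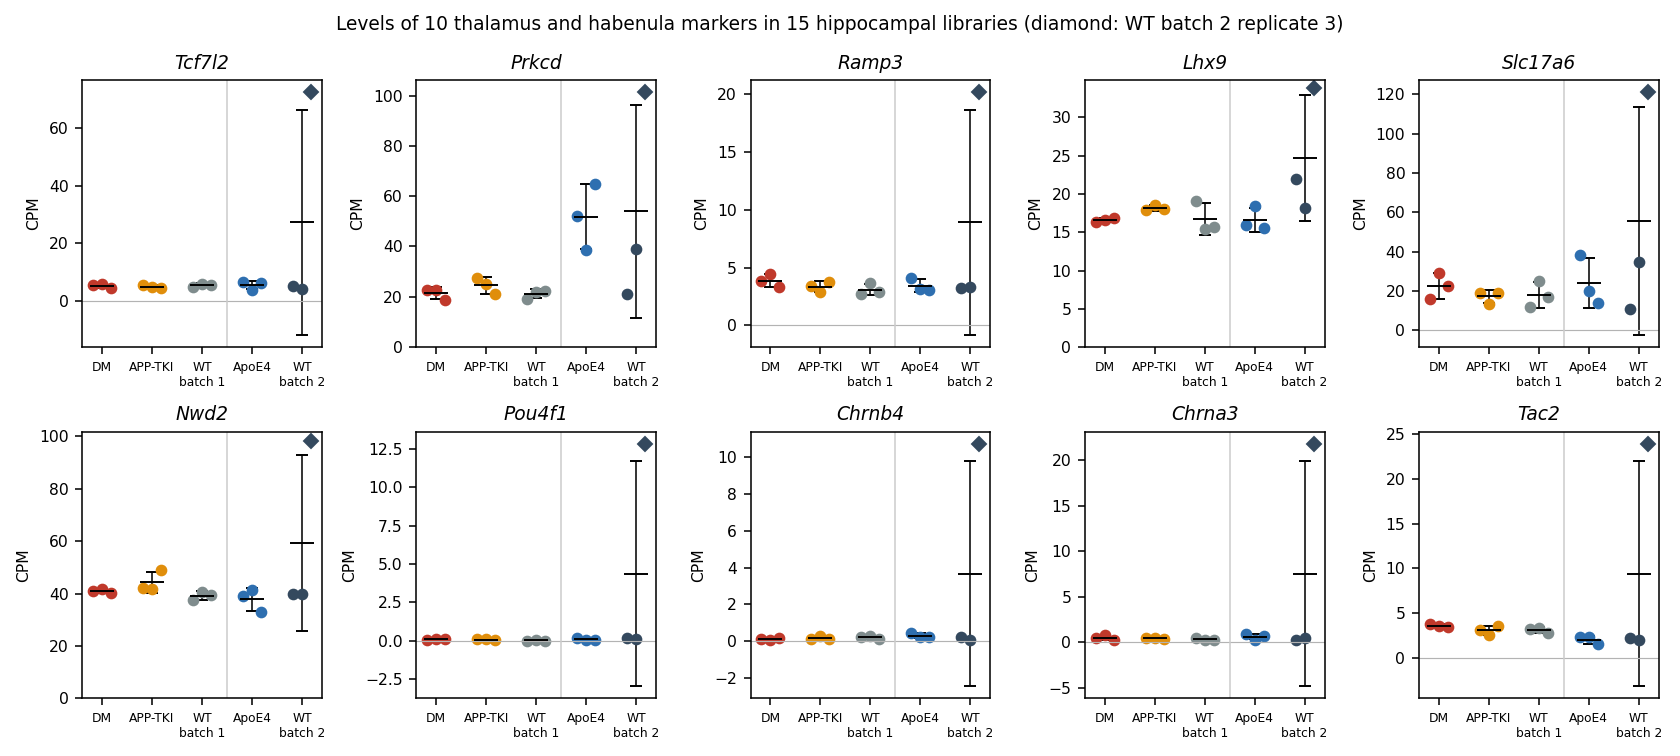
Level of each of the 10 markers (CPM, linear axes) in the 15 libraries. Each point is a library, the bars give the mean and SD of 3 libraries, the grey vertical line parts batch 1 from batch 2, and the diamond is WT replicate 3 of batch 2, which is the highest point in every panel (72.3 CPM for *Tcf7l2* and 12.8 CPM for *Pou4f1*).

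Of the 4 habenular markers, *Pou4f1*, *Chrnb4* and *Chrna3* were under 1 CPM in 14 libraries and over 10 CPM in the remaining one. *Pou4f1* (chr14:104461676-104467999, minus strand, GRCm38), a POU homeodomain transcription factor of medial habenular and sensory neurons, had 490 counts in WT replicate 3 of batch 2 and 0 to 7 counts in each of the other 14 libraries. In batch 2 it had 7, 2 and 2 counts in ApoE4 libraries, against 6, 4 and 490 in WT libraries. In batch 1 it had 2, 5 and 3 counts in DM libraries and 3, 4 and 1 in APP-TKI libraries, against 0, 2 and 0 in WT libraries. At such low counts no order among those 14 libraries could be read.

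*Chrna3* and *Chrnb4* encode the alpha and beta subunits of the ganglionic type of nicotinic receptor, which the medial habenula shares with autonomic ganglia. *Chrna3* had 41, 11 and 27 counts in ApoE4 libraries, against 10, 19 and 832 in WT libraries of batch 2, and 8 to 27 counts in batch 1. That is 21.8 CPM in WT replicate 3 of batch 2, against a median of 0.466 CPM in the other 14 libraries, a ratio of 46.8. *Chrnb4* had 20, 8 and 9 counts in ApoE4 libraries, against 8, 2 and 409 in WT libraries of batch 2, and 3 to 10 counts in batch 1. Its ratio to the median of the other 14 libraries was 56.5. Both receptor genes were thus high in the same single library, and ApoE4 replicate 1 came next for both.

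The pair lies on chromosome 9 beside another subunit gene whose level did not follow. From left to right stand *Chrna5* (chr9:54980880-55007779, plus strand), *Chrna3* (chr9:55010111-55026562, minus strand) and *Chrnb4* (chr9:55028154-55048779, minus strand). *Chrna5*, an accessory subunit, had 4.14 CPM in WT replicate 3 of batch 2, within the 3.25 to 5.82 CPM of the other 14 libraries. The RefSeq windows around the start of each gene (250 bases before to 50 after, GRCm38.p6, gene strand, 5′ to 3′) are shown because these neighbours differ in level in one library. Capitals mark the GC box GGGCGG on either strand.
Chrna3 (chr9:55026513-55026812, minus): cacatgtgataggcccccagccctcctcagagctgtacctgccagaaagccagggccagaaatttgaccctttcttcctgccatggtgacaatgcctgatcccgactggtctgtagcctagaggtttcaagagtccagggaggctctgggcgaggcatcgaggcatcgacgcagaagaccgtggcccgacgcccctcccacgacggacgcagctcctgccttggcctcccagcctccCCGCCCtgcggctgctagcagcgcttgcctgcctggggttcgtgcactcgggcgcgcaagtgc
Chrnb4 (chr9:55048495-55048794, minus): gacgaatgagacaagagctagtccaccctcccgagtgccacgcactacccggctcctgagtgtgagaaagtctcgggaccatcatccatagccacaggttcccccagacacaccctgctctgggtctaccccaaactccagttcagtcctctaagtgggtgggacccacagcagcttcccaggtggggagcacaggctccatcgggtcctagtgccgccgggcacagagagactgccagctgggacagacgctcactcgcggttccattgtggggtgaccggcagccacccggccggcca
Chrna5 (chr9:54980630-54980929, plus): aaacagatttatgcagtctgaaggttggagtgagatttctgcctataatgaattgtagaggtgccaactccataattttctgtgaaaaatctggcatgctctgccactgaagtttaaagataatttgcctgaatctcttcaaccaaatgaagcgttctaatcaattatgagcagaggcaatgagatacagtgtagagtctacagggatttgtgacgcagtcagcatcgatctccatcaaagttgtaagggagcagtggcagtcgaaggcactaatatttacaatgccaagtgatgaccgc
The RefSeq start of *Chrnb4* lies inside the GENCODE gene rather than at its first base. The *Chrna3* window held 1 GC box, and the windows of *Chrnb4* and *Chrna5* printed here held 0, while a second *Chrna5* window held 4. GC boxes stood in 35.7% of the 32851 RefSeq windows of this length. The TCF/LEF core CTTTGA, in 16.0% of all windows, was found in the printed *Chrna5* window only, and the POU4F1 motif ATAATTAAT, in 0.274% of all windows, in none of the 3. Both strands were searched, none of the 3 motifs contains another, and a match is a matter of letters only.

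Of the 9 other nicotinic subunit genes listed, 4 were highest in the same library, beside 11.6% of the genes past the filter. *Chrnb3*, a habenular subunit, had 12.2 CPM there, against 0.373 to 0.946 CPM in the other 14 libraries. *Chrna4* had 31.4 CPM, against 11.2 to 23.1 CPM, and *Chrnb2*, the partner of *Chrna4* across the brain, had 82.6 CPM, against 65.0 to 71.4 CPM. The fourth was *Chrna6*, named after its values were seen, with 1.68 CPM, against 0 to 0.175 CPM. *Chrna7*, the common hippocampal subunit, had 23.3 CPM, inside the 19.7 to 28.6 CPM of the other libraries.

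*Tac2* (chr10:127724478-127731768, plus strand), which encodes neurokinin B, was the only habenular marker past the filter. It had 3.80, 3.50 and 3.42 CPM in DM libraries and 3.11, 2.48 and 3.52 CPM in APP-TKI libraries, against 3.16, 3.36 and 2.72 CPM in WT libraries of batch 1. In batch 2 it had 2.26, 2.26 and 1.495 CPM in ApoE4 libraries, against 2.21, 2.01 and 23.9 CPM in WT libraries. The 5 lower libraries of batch 2 all lay below the 9 libraries of batch 1, and the order of the groups by mean was WT of batch 2, DM, WT of batch 1, APP-TKI and ApoE4. In that order DM and WT of batch 1 did not overlap and neither did APP-TKI and ApoE4. How often the groups part in this way over all genes was not computed. The WT mean of batch 2 (9.39 ± 12.6 CPM, SD, n = 3) rested on replicate 3. Among other tachykinin genes, *Tacr1*, the substance P receptor, was also highest in WT replicate 3 of batch 2, at 8.05 CPM against 1.196 to 4.56 CPM. *Tac1*, which encodes substance P, was not (11.5 CPM, against 6.58 to 33.8 CPM), nor was *Tacr3*, the neurokinin B receptor (2.75 CPM, against 1.78 to 4.66 CPM).

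Among the thalamic markers the sharpest contrast was that of *Tcf7l2* (chr19:55741820-55933654, plus strand), a TCF/LEF transcription factor of the Wnt pathway that thalamic and habenular neurons keep into adulthood. It had 6.61, 3.81 and 6.03 CPM in ApoE4 libraries, against 5.14, 4.17 and 72.3 CPM in WT libraries of batch 2, and 4.32 to 5.95 CPM in batch 1. These are 2759 counts in WT replicate 3 of batch 2 and 145 to 295 counts in the other 14 libraries, and the ratio to the median of those was 13.8. Without that library the ranges of *Tcf7l2* in the 5 groups overlapped for every pair of neighbours in their order. Of 8 other genes of the pathway, *Lef1*, a related factor that is a thalamic marker too, had 11.7 CPM, against 1.60 to 3.625 CPM. *Ctnnb1*, which encodes beta-catenin, was highest there by a small margin (534 CPM, against 430.0 to 520 CPM), and so were *Axin2*, a negative regulator (25.8 CPM, against 18.0 to 24.02 CPM), and *Tcf7l1*, named after its values were seen (3.85 CPM, against 2.15 to 3.37 CPM). *Tle3*, *Tle4* and *Bcl9l*, cofactors of the same factors, and *Tcf7* were within the range of the other libraries.

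*Ramp3* (chr11:6658521-6677475, plus strand), a receptor activity-modifying protein that turns the calcitonin receptor-like receptor into an adrenomedullin receptor, had 20.2 CPM in WT replicate 3 of batch 2 and 2.72 to 4.43 CPM in the other 14 libraries, a ratio of 6.04 to their median. Of its 7 listed partners and relatives, *Ramp1* had 56.2 CPM, against 48.9 to 62.8 CPM, and *Calcrl*, the receptor, had 10.9 CPM, against 6.47 to 9.60 CPM. *Ramp2* was within range at 14.7 CPM, against 10.5 to 16.9 CPM. *Lhx9* (chr1:138825186-138848577, minus strand), a LIM homeodomain factor of the developing thalamus, had 33.9 CPM, against 15.45 to 21.9 CPM, a ratio of 1.95 that was the smallest among the 10 markers. *Nwd2* (chr5:63649102-63810546, plus strand), named for its NACHT and WD repeat domains, had 98.2 CPM, against 32.84 to 48.9 CPM, a ratio of 2.43. It shares 1219 exon bases with *Gm9954* on the opposite strand (362 to 522 counts per library), and *Ramp3* shares 101 with *Gm11978* (0 to 10 counts). Whether reads were counted by strand was not given in the sources used here. Reads of these partners may therefore not be told apart.

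*Slc17a6* (chr7:51622006-51671119, plus strand), the vesicular glutamate transporter of subcortical neurons, varied between libraries in both batches. It had 38.2, 20.1 and 14.04 CPM in ApoE4 libraries, against 10.95, 34.8 and 121 CPM in WT libraries of batch 2. In batch 1 it had 16.0, 29.0 and 22.5 CPM in DM libraries and 19.1, 13.6 and 19.2 CPM in APP-TKI libraries, against 11.9, 25.2 and 17.1 CPM in WT libraries. The 2 WT libraries of batch 2 other than replicate 3 thus had the lowest and the second highest value of the remaining 14. *Slc17a7*, the transporter of hippocampal and cortical neurons, had its lowest level in WT replicate 3 of batch 2, at 947 CPM against 1002 to 1212 CPM.

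*Prkcd* (chr14:30595354-30626210, minus strand), the delta isoform of protein kinase C and a marker of most thalamic relay neurons, also varied widely among the other libraries of batch 2. It had 52.2, 38.7 and 64.8 CPM in ApoE4 libraries, against 21.2, 39.0 and 102 CPM in WT libraries of batch 2. In batch 1 it had 22.9, 22.6 and 18.8 CPM in DM libraries and 27.6, 25.1 and 20.9 CPM in APP-TKI libraries, against 19.2, 22.01 and 22.3 CPM in WT libraries. All 3 ApoE4 libraries lay above the 9 libraries of batch 1, and they overlapped with the WT libraries of their own batch, of which only replicate 1 was at the level of batch 1. *Tcf7l2* had 3.81 to 6.61 CPM in the same ApoE4 libraries, on both sides of the batch 1 range. Of the 8 other protein kinase C genes only *Prkcq*, the theta isoform, was highest in WT replicate 3 of batch 2 (31.3 CPM, against 7.08 to 15.2 CPM), and *Prkca* (286 CPM, against 294.5 to 385 CPM) and *Prkcb* (389 CPM, against 414 to 505 CPM) were lowest there.

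The levels of *Prkcd* went with those of *Zic1* and *Zic4*, a neighbouring pair of zinc finger genes listed as other thalamic markers. *Zic1* had 98.4, 49.9 and 112 CPM in ApoE4 libraries, against 10.3, 60.9 and 125 CPM in WT libraries of batch 2, and 5.24 to 13.2 CPM in batch 1. The same 5 libraries of batch 2 were high for both genes, and WT replicate 1 was low for both. Pearson's r of log2 CPM, centred within each batch, was 0.892 for *Prkcd* and *Zic1* over 15 libraries and 0.941 over 14 without WT replicate 3 of batch 2. For *Prkcd* and *Tcf7l2* it was 0.729 over 15 and 0.397 over 14, and for *Tcf7l2* and *Ramp3* 0.957 over 15 and 0.407 over 14. Over the 21 pairs of the 7 markers past the filter the median r was 0.786 (range 0.315 to 0.973) over 15 libraries and 0.159 (range -0.716 to 0.66) over 14. *Slc17a6* kept an r of 0.832 over 14 libraries with *Calb2*, which encodes the calcium-binding protein calretinin (0.913 over 15). These correlations are given as descriptions, and the libraries of a batch share collection and sequencing.

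**Figure D2:**
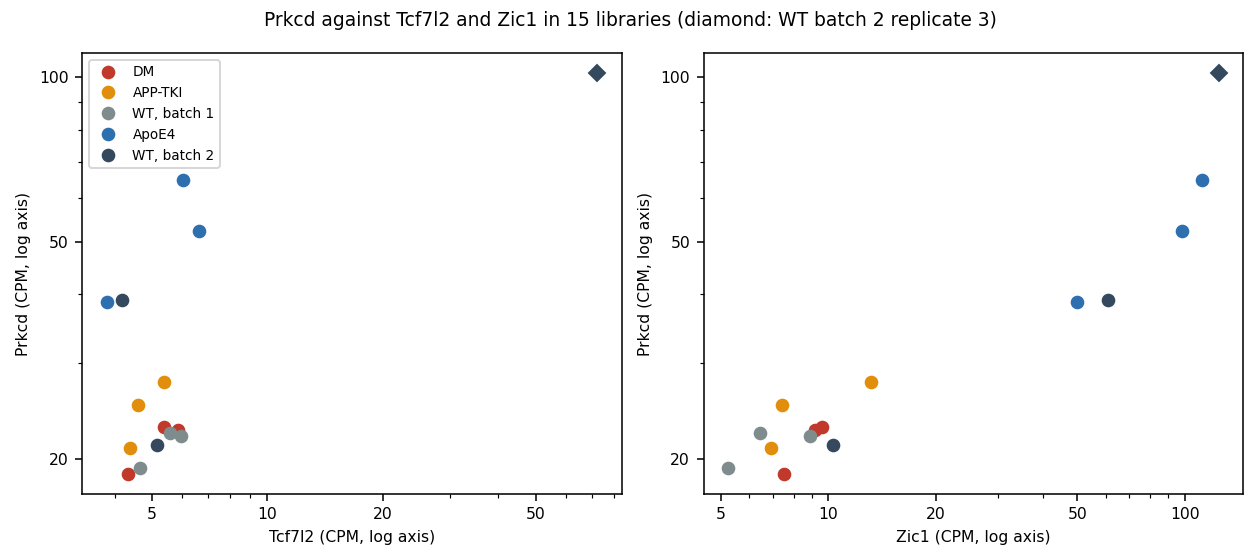
*Prkcd* against *Tcf7l2* (left) and against *Zic1* (right), in CPM on log axes, with a point for each of 15 libraries coloured by group and a diamond for WT replicate 3 of batch 2. In the left panel 4 libraries of batch 2 with 38.7 to 64.8 CPM of *Prkcd* lie at 3.81 to 6.61 CPM of *Tcf7l2*, against 4.32 to 5.95 CPM in batch 1, and in the right panel the same libraries lie at 49.9 to 112 CPM of *Zic1*.

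Per kilobase of exon, the scale on which genes can be compared, the median levels in the other 14 libraries were highest for *Prkcd* (4.10 CPM per kb), *Nwd2* (3.88) and *Slc17a6* (3.55). Those of *Chrna3* (0.0885), *Chrnb4* (0.0510) and *Pou4f1* (0.0156 CPM per kb) were the lowest. In WT replicate 3 of batch 2 *Slc17a6* (22.4 CPM per kb), *Prkcd* (18.3), *Tac2* (17.4) and *Ramp3* (14.6) led. *Chrna3* stood at 4.14, *Chrnb4* at 2.88 and *Pou4f1* at 2.75 CPM per kb there, close to *Lhx9* at 3.57 CPM per kb.

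Further markers of both regions were high in the same library. Their lists too were chosen with earlier results of these data known, so the counts below are a description. Of the 16171 genes past the filter, 11.6% were highest there. All 12 of the other thalamic markers were highest there, among them *Tnnt1*, a slow troponin T (9.12 CPM, against 0.907 to 2.11 CPM), *Rgs16*, a regulator of G protein signalling (29.2 CPM, against 5.53 to 9.93 CPM), and *Synpo2* (31.6 CPM, against 3.58 to 10.5 CPM). *Gbx2*, a homeobox gene of thalamic development, had 124 counts there and 0 to 17 in the others. The narrowest margins were those of *Zic1*, *Zic4* and *Calb2* (101 CPM, against 31.6 to 74.9 CPM). Of 14 other habenular markers 10 were highest there. *Gpr151*, an orphan receptor confined in the brain largely to the habenula, had 25.3 CPM, against 0.496 to 1.165 CPM, and *Nhlh2*, a helix-loop-helix factor, had 9.41 CPM, against 1.61 to 3.11 CPM. The 4 that were not highest were *Nr4a2*, *Tac1*, *Chrna5* and *Etv1*. The genes of acetylcholine synthesis and transport were highest there too. They also stood above batch 1 in all 3 ApoE4 libraries and in WT replicate 2 of batch 2, but not in WT replicate 1. *Slc5a7*, the choline transporter, had 5.06, 1.10 and 5.86 CPM in ApoE4 libraries, against 1.01, 1.96 and 13.7 CPM in WT libraries of batch 2. In batch 1 it had 0.611 to 1.02 CPM.

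**Figure D3:**
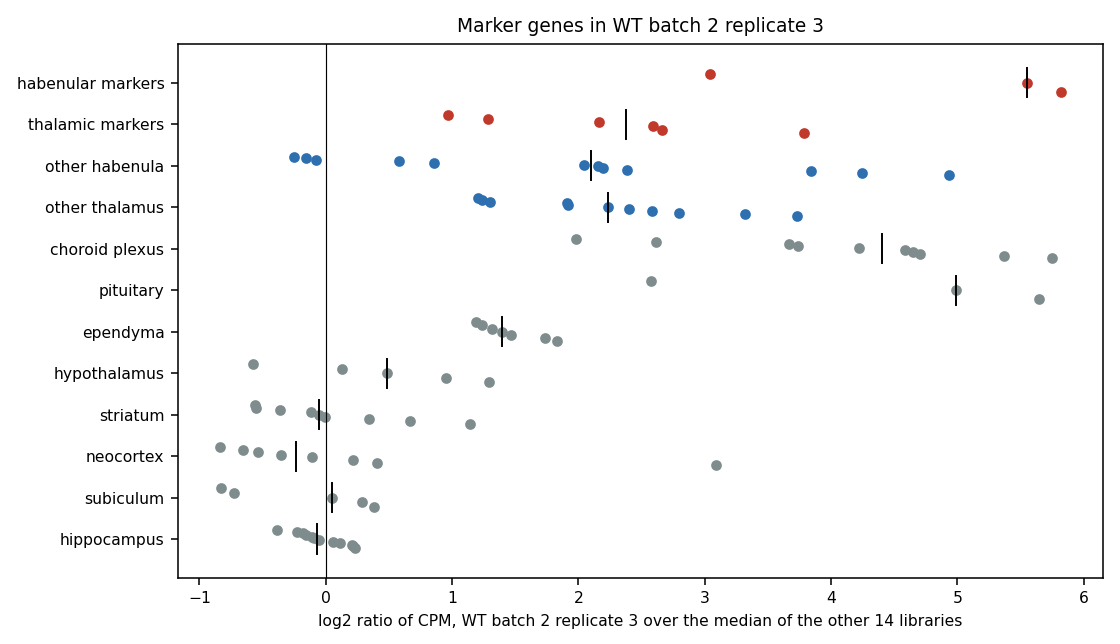
Log2 ratio of the CPM in WT replicate 3 of batch 2 to the median of the other 14 libraries, with a point for each gene of the marker lists named at the left and a black bar for the list's median. Red points are markers described here, blue points other thalamic and habenular markers and grey points markers of other tissues; genes with a median under 0.1 CPM, *Pou4f1* among them, are left out. The red and most blue points lie right of 0, and the hippocampal points lie around it. The choroid plexus, pituitary and ependymal points lie right of 0 as well.

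The 10 genes most like the thalamic markers over 15 libraries, by Pearson's r with the mean of their centred log2 CPM, were *Rora*, *Lrrc55*, *Rgs16*, *Tnnt1*, *Syt9*, *Minar1*, *Prkcq*, *Endou*, *Vav3* and *Hcn4*. Their r was 0.934 to 0.978. *Rora*, a nuclear receptor, had 110 CPM in WT replicate 3 of batch 2, against 41.0 to 55.2 CPM, and *Hcn4*, a pacemaker channel, had 12.1 CPM, against 1.71 to 3.83 CPM. Over the 14 libraries without it, *Rgs16* kept an r of 0.807 and *Hcn4* 0.789, while *Vav3* had -0.126 and *Syt9* 0.302. The 10 most like *Tac2* were *Syt9*, *Rora*, *Vav3*, *Rsrc1*, *Glra3*, *Arhgap24*, *Cbln2*, *Plekhg1*, *Nfam1* and *Gpr151*. *Syt9*, a synaptotagmin, had 53.4 CPM there, against 3.96 to 7.16 CPM, and an r with *Tac2* of 0.986 over 15 libraries and 0.787 over 14. That was the highest r of the 10 genes over 14 libraries, where *Vav3* was lowest at -0.298 and *Gpr151* had -0.143.

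In ApoE4 against WT mice of batch 2, *Tcf7l2*, *Tac2*, *Ramp3* and *Slc17a6* had large negative fold changes that rested on the single WT library. None of the 7 markers past the filter was called at an adjusted p under 0.1 by the quasi-likelihood test of edgeR, beside 0.0% of the 16171 genes tested. At an unadjusted p under 0.05 there were 2 of 7 markers and 969 genes. DESeq2 and the robust likelihood ratio test of edgeR called 0 of the 7 as well, beside 48 and 125 of all genes. The median log2 fold change was -1.20 over the 7 markers and -0.01 over all genes tested, and without WT replicate 3 it was 0.06 over the markers. The log2 fold change of *Tcf7l2* was -2.30 (SE 1.05) with all 6 libraries and 0.24 (SE 0.25) without WT replicate 3. For *Tac2* it was -2.22 (SE 0.94) and -0.07 (SE 0.23), for *Ramp3* -1.37 (SE 0.69) and 0.06 (SE 0.18), and for *Slc17a6* -1.20 (SE 0.77) and 0.08 (SE 0.53), in the same order. The standard errors of these 4 genes were smaller too when that library was left out.

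*Lhx9* and *Nwd2* had smaller values, -0.57 (SE 0.21) and -0.65 (SE 0.34) with all libraries and -0.27 (SE 0.115) and -0.075 (SE 0.10) without WT replicate 3. For *Prkcd* the value was -0.05 (SE 0.50) with all libraries and 0.79 (SE 0.28) without it. The groups overlapped for all 10 markers, and the share of all genes whose groups overlap was not computed. With the robust likelihood ratio test, which downweights single counts that lie far from the fit, the log2 fold change of *Tcf7l2* was -0.14 (SE 0.39) and that of *Prkcd* 0.415 (SE 0.28). *Pou4f1*, *Chrnb4* and *Chrna3* passed no filter, since only 1 library held them above 1 CPM. Without the filter 0 of 10 markers were called, beside only 12 of all genes tested.

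**Figure D4:**
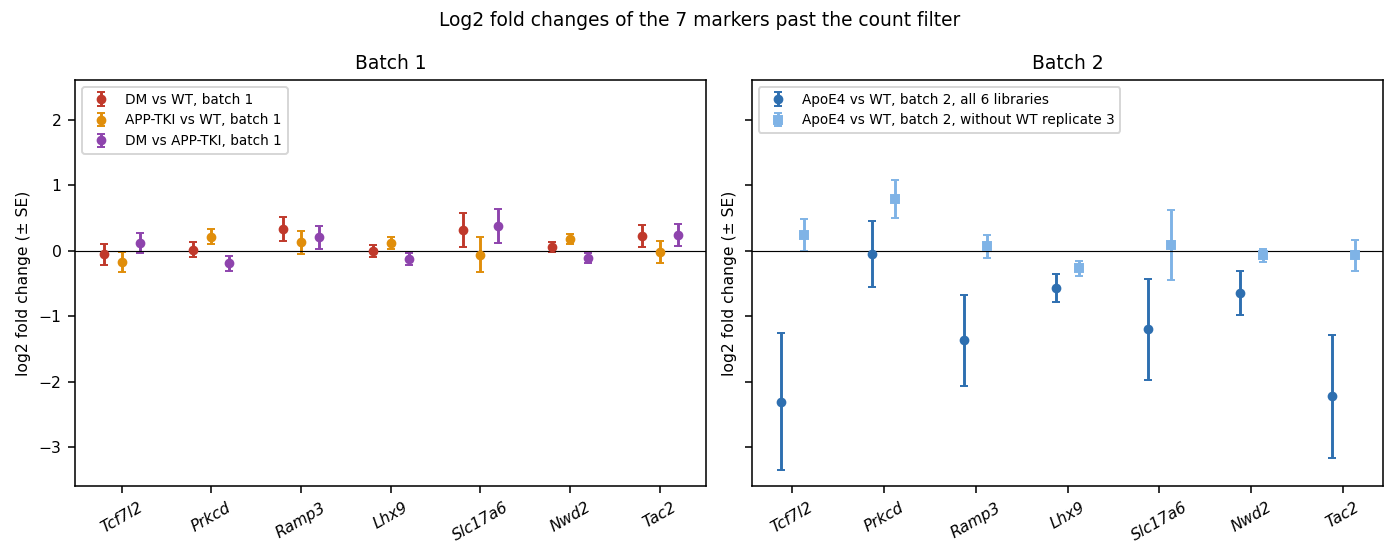
Log2 fold changes of the 7 markers past the filter, from the quasi-likelihood fits of edgeR, with standard errors worked back from the test statistic. The left panel gives the 3 comparisons of batch 1, all between -0.20 and 0.38, and the right panel gives ApoE4 against WT mice with all 6 libraries of batch 2 (circles) and without WT replicate 3 (squares), where *Tcf7l2* stands at -2.30 and 0.24.

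In batch 1, where no library stood apart for these genes, the fold changes were small. Of the 7 markers 0 were called in DM against WT mice, beside 0.0124% of all genes tested (2 of 16171), 0 in APP-TKI against WT mice, beside 0.00618% (1 gene), and 0 in DM against APP-TKI mice, beside 0.0%. At an unadjusted p under 0.05 there were 0, 1 and 0 markers, and 736, 576 and 611 genes. DESeq2 called 0 of the 7 in each, beside 50, 25 and 18 of all genes. The robust likelihood ratio test also called 0 of the 7 in each, beside 136, 50 and 53 of all genes. Same-numbered DM and WT libraries had correlated deviations in their counts. With the number as a block in the fit of all 9 libraries, 11 genes (0.068%) were called in DM against WT mice and still none of the 7 markers. The median log2 fold changes of the markers were 0.06, 0.12 and 0.11, beside 0.01, 0.01 and 0.00 over all genes.

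The largest single values were those of *Slc17a6* in DM against APP-TKI mice (0.38, SE 0.26) and of *Ramp3* in DM against WT mice (0.33, SE 0.18). *Nwd2* was higher in all 3 APP-TKI libraries than in any WT library, at 42.3, 41.7 and 48.9 CPM against 37.5, 40.7 and 39.6 CPM, with a log2 fold change of 0.17 (SE 0.07). *Tac2* was higher in all 3 DM libraries than in any WT library of the batch (log2 fold change 0.22, SE 0.17), and *Lhx9* was lower in all 3 DM libraries than in any APP-TKI library, at 16.4, 16.6 and 16.9 CPM against 17.9, 18.6 and 18.0 CPM (-0.13, SE 0.09). None of these passed the test. The share of all genes with such a separation was not computed, so these separations are descriptions only.

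WT mice were sequenced in both batches, which sets the size of a difference with no change of genotype. In WT mice of batch 2 against WT mice of batch 1, 4 of 7 markers were called (*Tcf7l2*, *Prkcd*, *Ramp3* and *Lhx9*, all higher in batch 2), beside 17.8% of all genes tested. Since the levels in these libraries chose the genes, the counts of markers called here are a description. The median log2 fold change was 1.51 over the markers and -0.02 over all genes. Without WT replicate 3 of batch 2, 0 of 7 markers were called by edgeR, beside 11% of all genes tested (1779 genes, and 3252 at an unadjusted p under 0.05), and the median was 0.08. The log2 fold change of *Tcf7l2* was then -0.23 (SE 0.22), against 2.31 (SE 0.76) with that library, and that of *Prkcd* 0.48 (SE 0.22), against 1.32 (SE 0.38). Leaving out WT replicate 1, 2 or 3 of batch 1 left 1 of 7 called, beside 11.1%, 14.7% and 14.1% of all genes. Leaving out WT replicate 1 or 2 of batch 2 gave 7 of 7, beside 18.1% and 13.2%. Batch and any other difference between the 2 sets of WT mice cannot be told apart.

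The effect of *APOE4* in mice carrying mutant *App* (DM minus APP-TKI) was also compared with its effect in other mice (ApoE4 minus WT of batch 2), a difference in which shifts shared by a whole batch drop out. Of the 7 markers 0 were called by edgeR, beside 0.0% of all genes, with 3 of 7 and 1107 genes at an unadjusted p under 0.05. DESeq2 and the robust likelihood ratio test called 0 of 7, beside 26 and 121 of all genes. The difference of log2 fold changes was 2.42 (SE 1.07) for *Tcf7l2* and 2.46 (SE 0.95) for *Tac2*. Without WT replicate 3 of batch 2 these were -0.125 (SE 0.29) and 0.31 (SE 0.28), and the median over the markers was 0.14, against 1.57 with it. *Prkcd* stood at -0.98 (SE 0.30) without that library, against -0.14 (SE 0.53) with it. Without the filter on low counts 8 of 10 markers were called, beside 1.08% of all genes tested (393 of 36318). *Pou4f1*, *Chrnb4* and *Chrna3* were among the 8, and their counts come almost wholly from WT replicate 3 of batch 2. For *Tcf7l2* the SE was then 0.198 at a difference of 2.37, against 1.07 at 2.42 with the filter. Since the levels chose the genes, these calls are a description.

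Markers of other tissues were also high in the library where the 10 markers were high. The summed level of 10 choroid plexus markers was 1700 CPM in WT replicate 3 of batch 2, against 27.35 to 2002 CPM in the other 14 libraries. *Ttr*, the transthyretin of choroid plexus epithelium, had 1749, 47.6 and 36.6 CPM in ApoE4 libraries, against 70.2, 26.0 and 1454 CPM in WT libraries of batch 2, and 4.48 to 41.3 CPM in batch 1. ApoE4 replicate 1 thus matched it for choroid plexus, with *Tcf7l2* at 6.61 CPM and *Pou4f1* at 7 counts. The 6 pituitary markers summed to 23.6 CPM, against 0.964 to 13.6 CPM, with the next highest values in the other WT libraries of batch 2 and *Lhb* and *Tshb* at no more than 0.320 and 0.2925 CPM in any library (both named after their values were seen). The 8 ependymal markers summed to 65.6 CPM, against 8.15 to 90.0 CPM, the highest being ApoE4 replicate 3. Striatal markers summed to 128 CPM, against 91.6 to 965 CPM, and the 965 CPM were those of ApoE4 replicate 3, whose 4 habenular markers summed to 2.38 CPM, the lowest of the 15 libraries.

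Neocortical markers summed to 166 CPM, against 152 to 208 CPM, and hypothalamic ones to 5.64 CPM, against 1.90 to 7.57 CPM. Subicular markers summed to 243.5 CPM, against 109 to 162 CPM, but *Slc17a6* is on that list too. Of the 12 hippocampal markers 0 were highest in WT replicate 3 of batch 2 and 2 were lowest. These were *Neurod6*, a factor of pyramidal neurons (150.0 CPM, against 161 to 217.5 CPM), and *Rgs14*, a gene of area CA2 named after its values were seen (91.37 CPM, against 91.44 to 113 CPM). The part of these other tissues in the levels of the 10 markers was not tested, and the extent of each dissection was not measured.

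**Figure D5:**
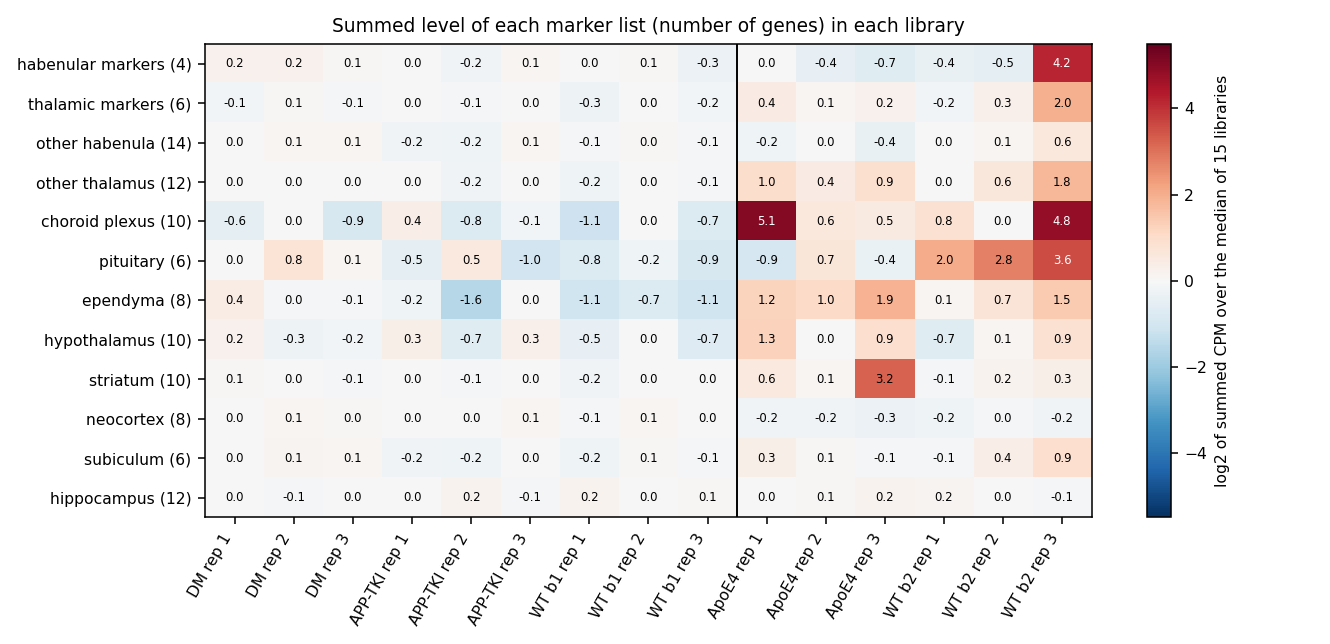
Summed CPM of each marker list (number of genes in parentheses) in each library, as the log2 ratio to the median of the 15 libraries, with the black line between batch 1 and batch 2. The habenular markers stand at 4.2 in WT replicate 3 of batch 2 and between -0.7 and 0.2 elsewhere, while choroid plexus is high there (4.8) and in ApoE4 replicate 1 (5.1), and striatum in ApoE4 replicate 3 (3.2).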

How the data were processed

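RNA of whole hippocampi was measured in 15 libraries by paired-end sequencing of poly(A) RNA. As deposited, the table holds unnormalised read counts per gene. The authors used Trimmomatic 0.39, STAR 2.7.1a (with human *APOE* appended to the mouse genome) and HTSeq 0.11.2, and the table holds human and mouse *APOE* as a single row. Libraries were directional, and whether HTSeq counted by strand was not given in the sources used here. The authors went on with R 4.0.2 and edgeR, a step that is not in these counts. Here 55230 of 55471 gene IDs were matched to the GENCODE annotation of GRCm38, in another release than that of the authors, and RefSeq supplied the promoter windows.

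Fold changes came from R 4.3.3 and edgeR 4.0.16 (quasi-likelihood test, upper quartile scaling, more than 1 CPM in at least 3 libraries, Benjamini-Hochberg adjustment over all 16171 genes, threshold 0.1), fitted on the 9 libraries of batch 1, the 6 of batch 2, or all 15 for comparisons between batches. The standard error (SE) of an edgeR log2 fold change is its absolute value divided by the square root of the test statistic. That statistic is F in the quasi-likelihood test and the likelihood ratio in the robust test. CPM values are counts scaled to a common library total. Alternatives were edgeR's robust likelihood ratio test, DESeq2 1.42.0, other scalings, no filter, a single fit of all libraries, a replicate block, and the omission of each library in turn. Upper quartile and TMM scaling of the ratios of single libraries was added after seeing the data. Figures were drawn with Python 3.11.15 and matplotlib 3.10.9. The fits were tested on simulated data.

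No 2 libraries of a group agreed within sampling noise (chi-square per degree of freedom 4.96 to 27). Deviations of same-numbered libraries correlated at 0.446, 0.195 and 0.300 between DM and WT mice. The numbers were taken as possible pairs there on the evidence of the counts, the labels saying nothing of pairing. Correlations of differently numbered libraries were not set beside them, and the block was fitted to all 9 libraries of batch 1, APP-TKI included. In the other comparisons at least 1 correlation was under 0.1.

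The 10 markers and the 18 gene lists (140 genes) were chosen with earlier results of these data known. Named genes are the 10 markers, up to 4 genes of each list by mean CPM, any other thalamic or habenular marker, and the 10 genes most like each profile.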

Additional observations from a re-analysis of the deposited data

How the results depend on the processing

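Of the counts of markers called under an alternative, 92 kept within 1.5 times the reported count and 11 did not. The reported count was 0 in every comparison except WT mice of batch 2 against WT mice of batch 1. A count of 0 that stayed at 0 is among the 92, so this tally says little about stability. Of the median log2 fold changes 98 moved by less than the spread between replicates and 5 by more. In comparisons that use WT mice of batch 2, that spread includes WT replicate 3, the library that stood apart. In ApoE4 against WT mice, a move from -1.2 to -0.228 with the robust likelihood ratio test is among the 98. So is a move to -0.747 there with the replicate block. In WT mice of batch 2 against WT mice of batch 1 the 4 markers called became 2 with edgeR's robust likelihood ratio test (median 0.308), 10 without the filter and 2 with a replicate block, beside 3290, 4124 and 2945 of all genes, and ranged from 0 to 7 when a library was left out (median 0.076 to 1.904). Of the 4 called markers *Tcf7l2* changed sign, to -0.232 without WT replicate 3 of batch 2, in a range of -0.232 to 2.822 over the libraries left out. Without the filter, 1 marker was called in DM against APP-TKI mice, *Slc17a6* (109 of all genes), and 8 in the difference of *APOE4* effects (393 of all genes), where the median was 0.28 with the robust likelihood ratio test and 0.138 to 1.966 when a library was left out. The median in ApoE4 against WT mice was -1.685 to 0.064 when a library was left out, and was 0.064 without WT replicate 3. The cause of the changes with the test and the filter was not tested. Since the levels chose the genes, the counts of markers called are descriptions. With the replicate block 0 markers were called in every other comparison, beside 0 to 11 of all genes. Over all genes, counts of calls depended on the tool: 2, 136 and 50 in DM against WT mice, 1, 50 and 25 in APP-TKI against WT mice, 0, 53 and 18 in DM against APP-TKI mice, 0, 125 and 48 in ApoE4 against WT mice and 0, 121 and 26 in the difference of *APOE4* effects, by the quasi-likelihood test, the robust likelihood ratio test and DESeq2. Other scalings of the ratios of WT replicate 3 of batch 2 to the median of the other 14 libraries were added after seeing the data. Each of the 20 log2 ratios changed, against the reported scaling, by less than the SD of log2 levels among the other 14 libraries. The ratios themselves stayed high. Depth limits the order of *Pou4f1*, *Chrnb4* and *Chrna3* in 14 libraries, where they had 0 to 41 counts.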
